A study of Homo sapiens with 6 samples.

Results

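GLTP, the glycolipid transfer protein, and 9 genes of sphingolipid synthesis, transfer and breakdown were followed in K562 cells given a microRNA mimic. The 10 genes (GLTP, COL4A3BP, UGCG, ST3GAL5, SPTLC1, SPTLC2, CERS2, CERS5, CERS6 and SGPL1) were found by symbol among the 35615 symbols of the deposited table, and all 10 passed the filter on low counts. GLTP was chosen by its measured log2 fold change, among the largest falls with the mimic in earlier results of these same libraries. The other 9 were chosen around it by their role, with those results known. The values of the 10 genes in the mimic and control libraries are therefore a description, and no p-value is given for them.

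K562 is an established human leukaemia line driven by the BCR-ABL1 fusion kinase of chronic myeloid leukaemia. Each culture was nucleofected with 500 pmol of a synthetic mimic, either of hsa-miR-92a-1-5p (3 libraries, miR92a 1 to 3) or of a negative-control sequence (3 libraries, scramble 1 to 3, called the control here). At 4 h the cultures of both groups received 1 µM imatinib, an inhibitor of the ABL1 kinase, and they were harvested for RNA after another 24 h. No culture without imatinib or without a mimic was analysed here, so the effect of the drug itself cannot be read from these libraries. The labels call all 6 libraries biological replicates and say no more on how the cultures were separated, so the p-values below measure the spread between these libraries.

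Sphingolipids are built on ceramide, which is made at the endoplasmic reticulum by serine palmitoyltransferase, ceramide synthases and a desaturase. Ceramide is carried to the Golgi, where it becomes sphingomyelin or glucosylceramide, the base of the gangliosides and globosides of the cell surface. GLTP is a cytosolic protein that moves glycosphingolipids between membranes. Breakdown runs back through ceramide to sphingosine and sphingosine 1-phosphate, a signalling lipid that is cleaved irreversibly by the lyase SGPL1.

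The mimic and the stretches of transcript that its seed could pair with are shown first, because the mimic is what the labels give as the difference between the groups. The mature strand is given as RefSeq lists it (GRCh38.p14, chr13:91351324-91351346, plus strand, 5′ to 3′), with the seed, bases 2 to 8, in capitals.
hsa-miR-92a-1-5p: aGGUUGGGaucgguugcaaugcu
A full seed match reads CCCAACC (7mer-m8), a match to bases 2 to 7 followed by an A reads CCAACCA (7mer-A1), and CCCAACCA joins both (8mer). All 3 contain the 6mer CCAACC, only the transcript strand was searched, and each site was counted once under its longest form. Of the 10 genes, 3 held a 7mer or 8mer in the longest 3′ UTR annotated in GENCODE release 29 (GRCh38): GLTP, CERS6 and ST3GAL5. GBGT1, a glycosyltransferase described below, is set beside them because it had the largest fall among the listed sphingolipid genes that are not members. HEXA, picked after its value was seen, is added as a gene with an 8mer and a log2 fold change of -0.05. Capitals mark the match, and each stretch ends opposite the first base of the mimic.
GLTP, chr12:109851334-109851340, minus strand, 7mer-A1: ttgttttacagctgaaaCCAACCA
CERS6, chr2:168771308-168771315, plus strand, 8mer: tagttaaaagaatgttCCCAACCA
ST3GAL5, chr2:85839564-85839570, minus strand, 7mer-A1: gctgaaagactcgagaaCCAACCA
GBGT1, chr9:133153121-133153128, minus strand, 8mer: gggtcctttgatgtctCCCAACCA
HEXA, chr15:72342716-72342723, minus strand, 8mer: cttccatccccctcctCCCAACCA
The GLTP match began at base 1215 of a 3′ UTR of 1612 bases, that of CERS6 at base 1646 of 5475, that of ST3GAL5 at base 574 of 3024 and that of GBGT1 at base 2046 of 2221. Among the tested genes with a 3′ UTR within 20% of the length of GLTP's (1867 genes) 16.3% held a 7mer or 8mer. The same share was 38.0% around the length of CERS6, 22.3% around that of ST3GAL5 and 20% around that of GBGT1. A match is a string of letters, and whether the mimic bound it was not measured.

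GLTP also held a match in its coding sequence, shown because 1 annotated transcript carries the same bases in its 3′ UTR.
GLTP coding, chr12:109855699-109855705, minus strand, 7mer-m8: gcgggacgagaaccacCCCAACCt
It began at base 361 of the 630 coding bases of the longest transcript (2356 bases). Of the 4 annotated GLTP transcripts with a 3′ UTR, that longest one held the 7mer-A1, and a shorter one of 969 bases held this 7mer-m8 in a 3′ UTR of 765 bases. The other two held neither. Both CERS6 transcripts and all 13 ST3GAL5 transcripts with a 3′ UTR carried their match. A match was carried by 3 of 9 such transcripts of GBGT1 and by 1 of 4 of HEXA. Which transcripts K562 cells use was not measured. Among the other members CERS5 and SGPL1 held 1 coding match each, a 7mer-m8 and an 8mer, and SPTLC1, SPTLC2, CERS2, COL4A3BP and UGCG held no 7mer or 8mer in either region searched.

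**Figure D1:**
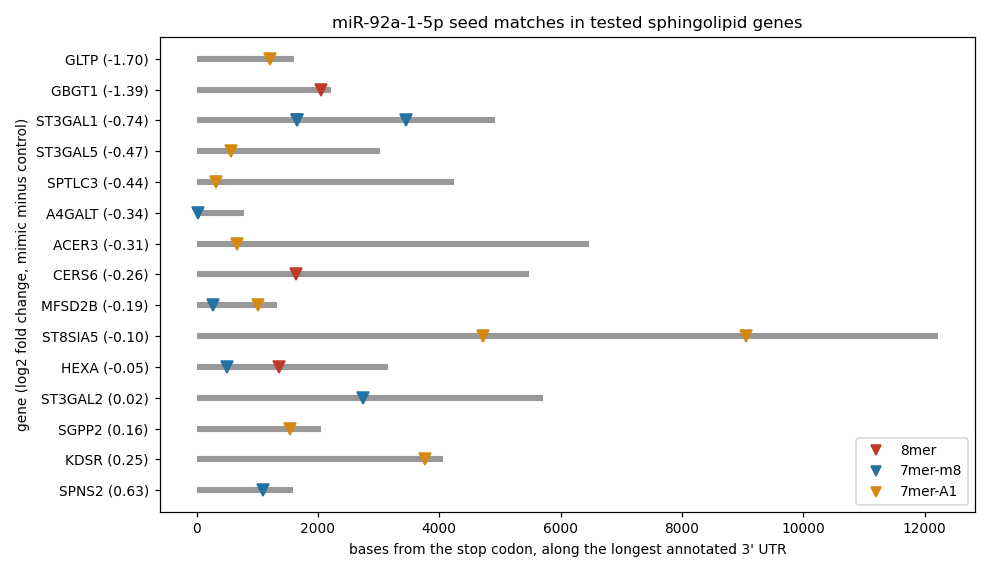
Longest annotated 3′ UTR of each tested sphingolipid gene that holds a 7mer or 8mer for the mimic's seed. The x axis gives bases from the stop codon, triangles mark matches coloured by form, and the number after each symbol is the log2 fold change, mimic minus control. Genes with a match ran from GLTP at -1.70 to SPNS2 at 0.63 (SE 0.65), and 2 matches of ST3GAL1 that overlap fall on 1 triangle.

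Library totals were 24751862 to 25982085 estimated counts in 5 libraries and 704448 in miR92a 1, 36-fold below the median of the others. In that library 3 counts stood for 4.08 CPM (edgeR's depth-scaled counts with TMM factors, the unit of all levels below), against 0.115 to 0.125 CPM elsewhere, so its values for scarce genes are coarse. The 12 erythroid genes listed to check the line were all detected, and their summed level was 13063 to 21299 CPM in the control and 10215 to 20159 CPM with the mimic. The labels give the cell type as myeloblast. Of 7 myeloblast genes MPO and CTSG were at 0 in all libraries, and the 7 summed to 25.7 to 28.0 CPM in the control and 16.3 to 24.7 CPM with the mimic. Replicate 3 of both groups stood apart from replicates 1 and 2, and its values are given with each gene. In such bulk RNA a lower level in every cell and a smaller number of cells expressing a gene cannot be told apart.

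GLTP was low in every library given the mimic. It had 14.1, 14.9 and 8.27 CPM in scramble 1, 2 and 3 and 4.08, 4.16 and 3.45 CPM in miR92a 1, 2 and 3. The groups did not overlap, and scramble 3 lay below the other control libraries by 0.80 on the log2 scale. The means were 12.4 ± 3.60 CPM in the control and 3.90 ± 0.391 CPM with the mimic (SD, n = 3), a fitted log2 fold change of -1.70 ± 0.28 (SE), or 30.9% of the control level. The value in miR92a 1 rests on 3 counts, with an exact Poisson 95% interval of 0.842 to 11.9 CPM, which covers counting error only and holds the scramble 3 value. The libraries miR92a 2 and miR92a 3, with 109 and 86 counts against 199 to 376 in the control, carry the difference, which was -1.70 without miR92a 1. Taken by replicate number, the log2 differences were -1.76, -1.81 and -1.24. GLTP is the gene the choice began with, so these values describe why it was chosen. A processed pseudogene of it, GLTPP1, had at most 1 count in any library.

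**Figure D2:**
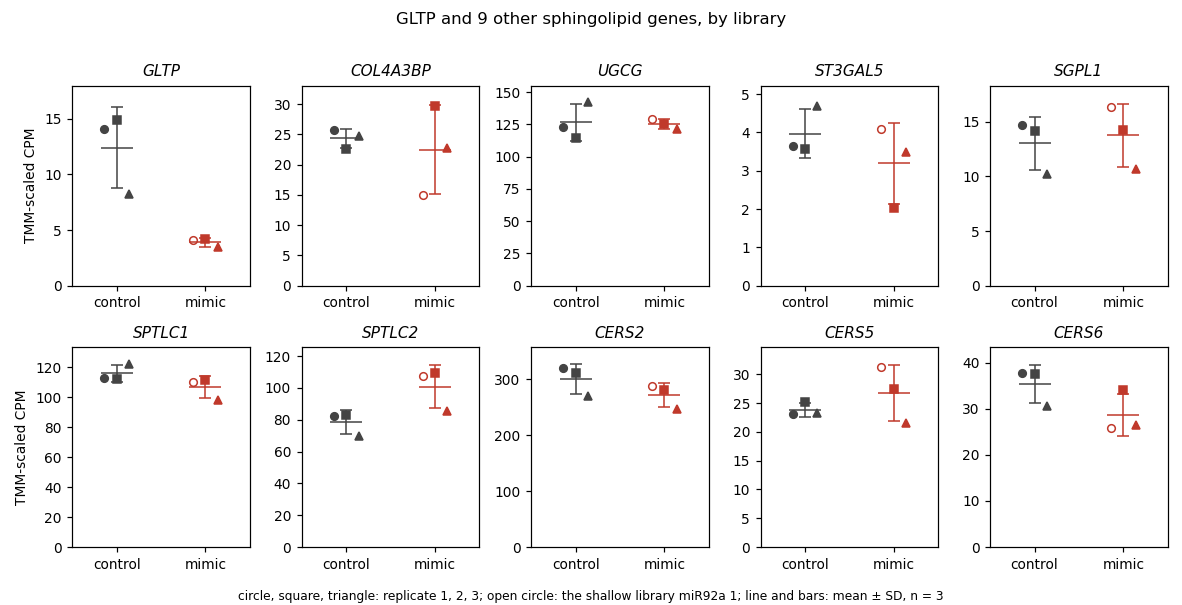
TMM-scaled CPM (y axis, from 0) of the 10 genes in the control and mimic libraries. Points are libraries, marked by replicate number, with the mean and SD of 3 libraries per group; the GLTP mimic libraries lie between 3.45 and 4.16 CPM, below all control libraries, whereas most other genes overlap between groups.

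The ceramide carrier and the glycosphingolipid synthases among the members lay closer to their control levels. COL4A3BP, also called CERT, carries ceramide from the endoplasmic reticulum to the Golgi for sphingomyelin synthesis. It had 25.7, 22.6 and 24.7 CPM in the control and 15.0, 29.7 and 22.7 CPM with the mimic. The mimic libraries lay on both sides of the control, the lowest being miR92a 1 with 11 counts, and the log2 fold change was 0.01 ± 0.19 (SE). Without miR92a 1 it was 0.11 and without miR92a 2 it was -0.23. Exons of COL4A3BP overlap POLK on the opposite strand, and the library strand is not given in the sources used here, so reads of these genes may be exchanged.

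UGCG makes glucosylceramide, the first step of most glycosphingolipids and the lipid on which GLTP's cargo is built. It had 123, 114 and 142 CPM in the control and 129, 125 and 121 CPM with the mimic. All mimic libraries fell within the range of the control, with a log2 fold change of -0.02 ± 0.10 (SE). ST3GAL5, the sialyltransferase that makes ganglioside GM3, was scarce, at 3.65, 3.56 and 4.70 CPM in the control and 4.08, 2.02 and 3.49 CPM with the mimic. Its groups overlapped, miR92a 1 again rested on 3 counts, and its log2 fold change was -0.47 ± 0.32 (SE; -0.53 without miR92a 1, -0.15 without miR92a 2 and -0.80 without miR92a 3).

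Serine palmitoyltransferase joins serine and palmitoyl-CoA in the first step of the pathway, and SPTLC1 and SPTLC2 are chains of it. SPTLC2 had 82.5, 83.2 and 69.7 CPM in the control and 107, 110 and 85.3 CPM with the mimic. Each mimic library was above all control libraries, and replicate 3 was the lowest of both groups. The log2 fold change was 0.34 ± 0.13 (SE), and 0.35 ± 0.09 with the replicate number as a block. SPTLC1 had 113, 112 and 123 CPM in the control and 110, 112 and 98.3 CPM with the mimic (-0.13 ± 0.09, SE; -0.06 without miR92a 3). Its groups did not overlap only by a narrow gap, from 112.1 CPM in scramble 2 to 111.5 CPM in miR92a 2. Of the summed CPM per kb of SPTLC1, SPTLC2 and SPTLC3, SPTLC2 took 13.5% ± 1.68 in the control and 17.7% ± 0.964 with the mimic (SD, n = 3), and the groups did not overlap. Lengths for all values per kb are those of the longest protein-coding transcript annotated for each gene.

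The ceramide synthases attach fatty acids of different lengths to the sphingoid base. CERS2, which prefers very long chains, had 321, 311 and 270 CPM in the control and 288, 281 and 247 CPM with the mimic (-0.15 ± 0.10, SE; -0.08 without miR92a 3, -0.10 without scramble 1), with overlapping groups and replicate 3 lowest in both. Its exons overlap SETDB1 on the opposite strand, which is abundant here. CERS5, which prefers palmitoyl chains, had 23.1, 25.2 and 23.2 CPM in the control and 31.3, 27.5 and 21.5 CPM with the mimic (0.10 ± 0.15). CERS6, which has a similar preference, had 37.9, 37.7 and 30.6 CPM in the control and 25.8, 34.1 and 26.4 CPM with the mimic (-0.26 ± 0.15), and its groups overlapped. The log2 fold change of CERS6 was -0.43 without miR92a 2 and -0.14 without miR92a 3. That of CERS5 was 0.01 without miR92a 2 and 0.25 without miR92a 3.

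Per kb of transcript, CERS2 made up most of the ceramide synthase transcripts in every library, with 84.4% ± 1.37 in the control and 82.8% ± 0.329 with the mimic (SD, n = 3). CERS5 followed with 5.99% and 7.21%, then CERS4 with 5.42% and 4.95% and CERS6 with 3.49% and 3.09%. CERS1 was the rarest in the control at 0.742% ± 0.266 and had 1.99% ± 0.357 with the mimic, without overlap between the groups. Its share is uncertain, since it rests on 6 counts in miR92a 1 and CERS1 shares 2517 exon bases with GDF1 on the same strand.

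**Figure D3:**
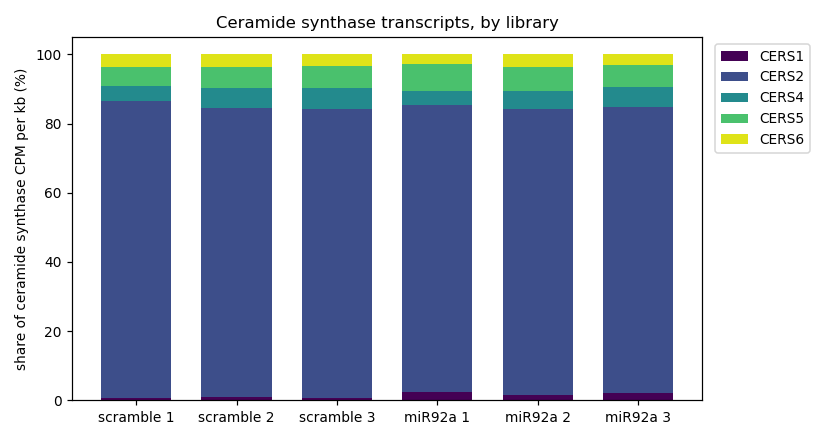
Share of each ceramide synthase in the summed CPM per kb of the 5 tested ceramide synthases (y axis, percent), 1 bar per library. CERS2 fills 82.5% to 85.9% of every bar, and CERS1 is the thin band at the base, 0.512% to 1.03% in the control libraries and 1.63% to 2.34% in the mimic libraries. The highest CERS1 share, in miR92a 1, rests on 6 counts.

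SGPL1, the lyase that ends the pathway by splitting sphingosine 1-phosphate, had 14.7, 14.1 and 10.2 CPM in the control and 16.3, 14.3 and 10.7 CPM with the mimic. The groups overlapped, replicate 3 was lowest in each, and the log2 fold change was -0.01 ± 0.22 (SE).

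Set in order by level in the control, CERS2 was the highest of the members at 118 ± 10.7 CPM per kb (SD, n = 3), followed by SPTLC1 at 61.2 ± 3.03, UGCG at 31.6 ± 3.53, SPTLC2 at 9.61 ± 0.930, CERS5 at 8.35 ± 0.417, GLTP at 5.27 ± 1.53, CERS6 at 4.90 ± 0.576, COL4A3BP at 2.94 ± 0.192, SGPL1 at 2.27 ± 0.425 and ST3GAL5 at 0.895 ± 0.143. The ranges of SPTLC2 and CERS5 overlapped, as did those of GLTP and CERS6, and the other neighbours in the order were apart. GLTP was thus 42nd of the 73 tested sphingolipid genes in the control. With the mimic it had 1.65 ± 0.166 CPM per kb.

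By edgeR's quasi-likelihood test with Benjamini-Hochberg adjustment over all 14543 tested genes, 1 of the 10 members, GLTP, was called lower and none higher. Over all tested genes 0.976% were called lower and 0.433% higher at the same threshold (adjusted p under 0.05), 1.41% in all. At an unadjusted p under 0.05, 1 member was lower (GLTP) and 1 higher (SPTLC2), beside 7.51% and 6.0% of all tested genes. DESeq2 called no member and gave GLTP (log2 fold change -1.70) no adjusted p, as for 5359 of the tested genes, so GLTP was not judged there. Limma-voom called no member either, with -1.64 for GLTP. Over all tested genes DESeq2 called 1.70% lower and 0.963% higher, and limma-voom 1.25% and 0.639%. With the replicate block GLTP was lower (-1.58 ± 0.20, SE) and SPTLC2 higher, where the block called 6.70% of all tested genes lower and 4.57% higher (11.3% in all). The SPTLC2 call was lost in that fit without replicate number 1 or 2. The groups did not overlap for 3 members, with the mimic below the control for GLTP and SPTLC1 and above it for SPTLC2, as for 11.5% (below) and 9.73% (above) of all tested genes. Since this contrast took part in the choice of the members, nothing is read from these counts. The GLTP call was lost on leaving out any library except scramble 3, while its log2 fold change stayed between -1.92 (without scramble 3) and -1.54 (without scramble 2). The median log2 fold change was -0.07 over the members and -0.01 over all tested genes.

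The rest of the pathway was listed by role from textbook knowledge, with earlier results of these libraries known. Of 74 such genes 73 were in the table (S1PR2 was not analysed here) and 63 passed the filter on low counts; the other 10, among them the sphingosine 1-phosphate receptors S1PR1 and S1PR4, had at most 18 counts in any library. Without the block 1 of the 63 fell, GBGT1, and none rose. That is 1.59% lower, against the 0.976% given above for all genes. At an unadjusted p under 0.05 there were 7 lower and 3 higher, beside 7.51% and 6.0% of all genes. DESeq2 called 2 lower and 1 higher, with no adjusted p for 23 of the 63, and limma-voom 1 lower and 1 higher, beside the shares of all genes given above for these tools. The median log2 fold change of the 63 was -0.05.

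GBGT1 fell with the mimic. It encodes the human relative of the glycosyltransferase that makes the Forssman glycolipid from globoside, and its activity was not measured. The control libraries had 100.3, 98.8 and 76.4 CPM and the mimic libraries 34.0, 39.8 and 30.8 CPM. Every mimic library was far below every control library, also in the shallow miR92a 1, where 25 counts give an exact Poisson 95% interval of 22.0 to 50.2 CPM. The means were 91.9 ± 13.4 and 34.9 ± 4.58 CPM (SD, n = 3), or 38.2% of the control. The log2 fold change was -1.39 ± 0.15 by edgeR's quasi-likelihood test (SE, adjusted p = 0.0059). The difference was -1.56, -1.31 and -1.31 by replicate number, and GBGT1 stayed past the threshold with each library left out (edgeR adjusted p from 0.0027 to 0.0441). In the control GBGT1 had 32.0 ± 4.68 CPM per kb, a level whose range overlapped that of UGCG. It shares 677 exon bases with AL162417.1, a protein-coding annotation on the same strand.

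With the replicate block 8 of the 63 genes fell (12.7%) and 2 rose (3.17%), beside the 6.70% and 4.57% of all tested genes given above. The counts were 5 and 2 without replicate number 1, 5 and 1 without number 2, and 7 and 2 without number 3. Calls over all tested genes also dropped in these fits, from 975 lower and 664 higher with all replicates. They were 751 and 486 without number 1, 549 and 285 without number 2, and 866 and 554 without number 3. The 8 were GBGT1, SPTSSA, SGMS1, ST3GAL1, PLEKHA8, NEU3, ASAH1 and GALC. CERS1 was among those that rose. Apart from GBGT1, none of those named here passed in the edgeR fit without the block. The replicate numbers pair the cultures only as far as the counts show, and these set apart only replicate 3. The genes named belong to ceramide synthesis, transfer, sphingomyelin synthesis, glycosphingolipid synthesis and breakdown, and the ceramidases. None came from the inhibitors of serine palmitoyltransferase or the 2 lists on sphingosine 1-phosphate.

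**Figure D4:**
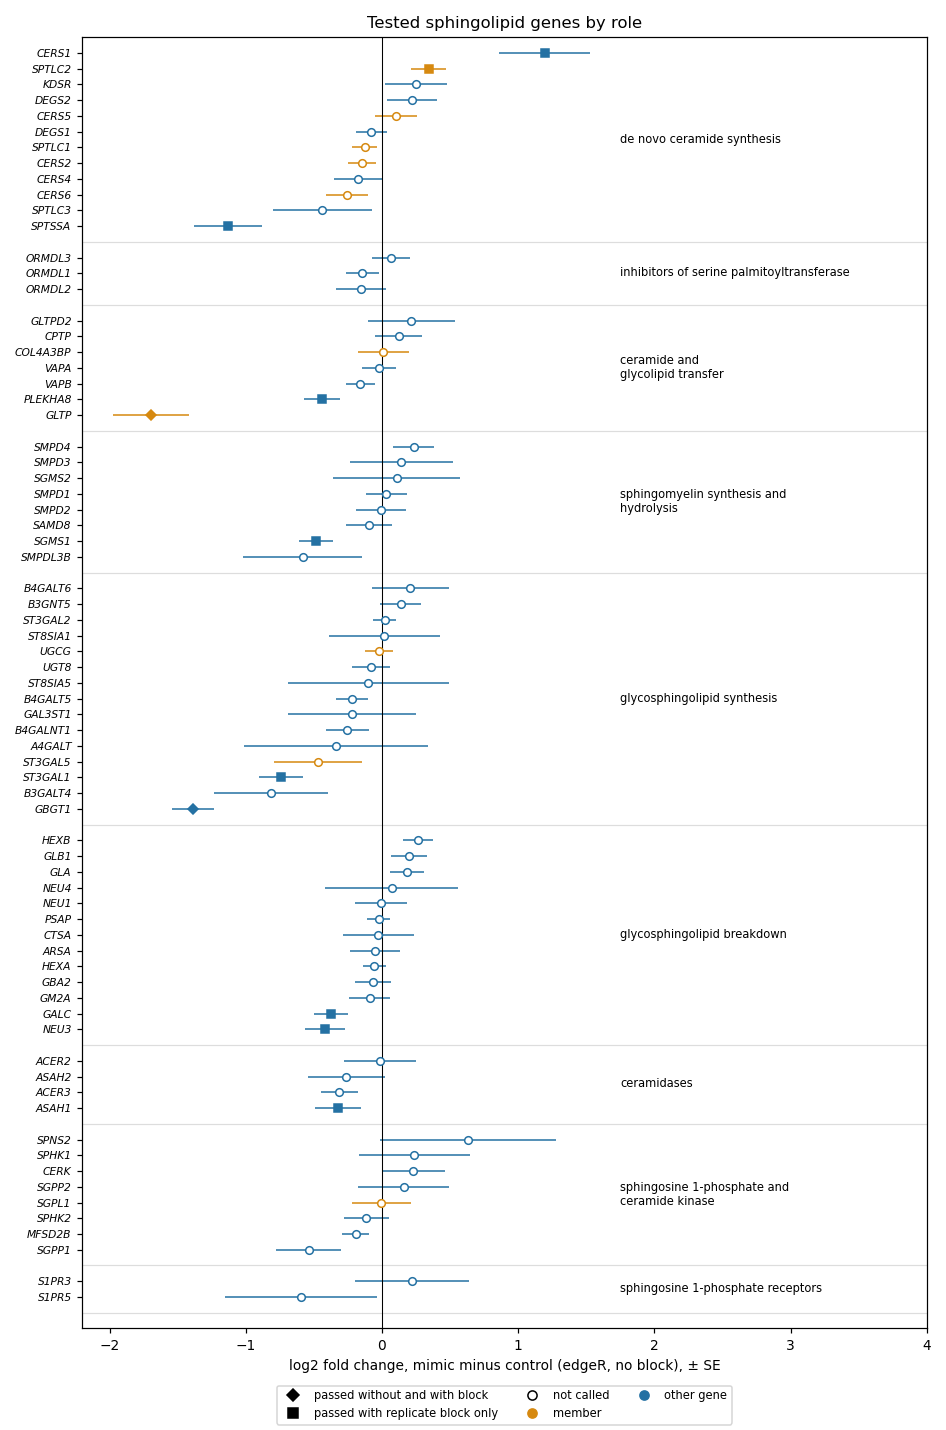
Log2 fold change, mimic minus control, with its SE (x axis, edgeR without the block) of tested sphingolipid genes, grouped by role. Diamonds passed without and with the replicate block (GLTP and GBGT1), squares passed with the block only, and open circles passed in neither. The members are orange and the other genes blue. This contrast took part in the choice of the members, so their marks are a description.

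Among genes of ceramide synthesis, SPTSSA, a small activating subunit of serine palmitoyltransferase, had 27.1, 25.5 and 25.3 CPM in the control and 15.0, 15.2 and 7.82 CPM with the mimic. In miR92a 1 SPTSSA rested on 11 counts, with an exact Poisson 95% interval of 7.47 to 26.8 CPM that holds the scramble 2 and 3 values. Every mimic library was below the control, and miR92a 3 was the lowest. In the blocked fit it fell by 1.17 ± 0.18 on the log2 scale (SE, adjusted p = 1.5e-04; 0.0789 without the block). With the pairs of one number left out in turn it kept its call, at -0.77 without replicate 3 and -1.52 without replicate 2. CERS1, a ceramide synthase best known from brain and muscle, had 1.92, 3.87 and 2.20 CPM in the control and 8.16, 5.57 and 6.01 CPM with the mimic. It rose by 1.11 ± 0.28 in the blocked fit (adjusted p = 0.0142; 0.163 without the block; 0.218 with the block and without replicate 3). CERS1 shares 2517 exon bases with GDF1, on the same strand, so its value is uncertain. In miR92a 1 it rests on 6 counts. The 3 ORMDL genes, inhibitors of serine palmitoyltransferase, were not called in either fit, and the most abundant, ORMDL1, had 73.5 ± 4.61 CPM in the control and 69.2 ± 11.0 with the mimic (SD, n = 3).

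PLEKHA8, also called FAPP2, carries glucosylceramide through the Golgi and has a domain related to GLTP. It had 56.1, 49.7 and 44.6 CPM in the control and 35.4, 40.8 and 33.8 CPM with the mimic, with the mimic libraries below the control. It fell by 0.39 ± 0.11 in the blocked fit (SE, adjusted p = 0.0256; 0.193 without the block), a call lost without replicate 1 (0.109) or replicate 2 (0.110). Its pseudogene PLEKHA8P1 had 140 to 214 counts in the deeper libraries, so reads may be shared. The PLEKHA8 value in miR92a 1 rested on 26 counts, with an exact Poisson 95% interval of 23.1 to 51.8 CPM that reaches into the control. The further transfer genes CPTP, GLTPD2, VAPA and VAPB were called in neither fit, with log2 fold changes from -0.16 (VAPB) to 0.22 (GLTPD2). CPTP, the ceramide-1-phosphate carrier of the same family as GLTP, had 0.12 ± 0.17.

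SGMS1, the Golgi sphingomyelin synthase, had 90.3, 89.2 and 105.8 CPM in the control and 55.8, 65.8 and 75.6 CPM with the mimic. The groups were apart and replicate 3 was the highest of each. It fell by 0.50 ± 0.09 in the blocked fit (SE, adjusted p = 0.0012; 0.127 without the block), and kept its call with any replicate number left out. ST3GAL1, a sialyltransferase that acts mainly on O-linked glycans and also on gangliosides, had 19.7, 19.4 and 16.5 CPM in the control and 9.52, 12.4 and 10.2 CPM with the mimic. It fell by 0.71 ± 0.15 in the blocked fit (adjusted p = 0.0039; 0.0789 without the block), also with any replicate number left out. Its 3′ UTR held 3 matches of the 7mer-m8 form, 2 of them overlapping. The ST3GAL1 value in miR92a 1 rested on 7 counts, with an exact Poisson 95% interval of 3.83 to 19.6 CPM that reaches into the control.

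In breakdown, NEU3, the plasma membrane sialidase of gangliosides, had 52.1, 50.8 and 40.5 CPM in the control and 39.5, 38.6 and 31.5 CPM with the mimic. It fell by 0.38 ± 0.11 in the blocked fit (adjusted p = 0.0257; 0.258 without the block), a call lost without replicate 1 (0.0764) or replicate 2 (0.289). The NEU3 value in miR92a 1 rested on 29 counts, with an exact Poisson 95% interval of 26.4 to 56.7 CPM that holds all control values.

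ASAH1, the lysosomal acid ceramidase, had 265, 303 and 298 CPM in the control and 309, 224 and 181 CPM with the mimic. The groups overlapped, because miR92a 1 was the highest of all 6 libraries. It fell by 0.37 ± 0.11 in the blocked fit (SE, adjusted p = 0.0420; 0.472 without the block), a call lost without replicate 2 (0.194). GALC, the galactosylceramidase, named after its values were seen, had 59.7 ± 5.16 CPM in the control and 46.0 ± 4.83 with the mimic (SD, n = 3; blocked adjusted p = 0.0426). Without the block its edgeR adjusted p was 0.229. Its log2 differences by replicate number were uneven, at -0.39, -0.10 and -0.65. PSAP, the saposin precursor that was the most abundant of the 73 genes per kb, also named after the fact, had a log2 fold change of -0.02 ± 0.08.

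Genes that make, export or sense sphingosine 1-phosphate were called in neither fit. The most abundant of them in CPM that was no member, the red cell exporter MFSD2B, had 60.5 ± 3.84 CPM in the control and 53.0 ± 1.02 with the mimic (SD, n = 3). Its log2 fold change was -0.19 ± 0.10 (SE), and its 3′ UTR held 2 matches. Of the receptors, S1PR3 had 1.77, 1.22 and 1.12 CPM in the control and 1.79 and 1.64 CPM in miR92a 2 and 3. It had no count in miR92a 1, where the 3 counts taken as the limit that a count of 0 allows stand for 4.08 CPM.

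**Figure D5:**
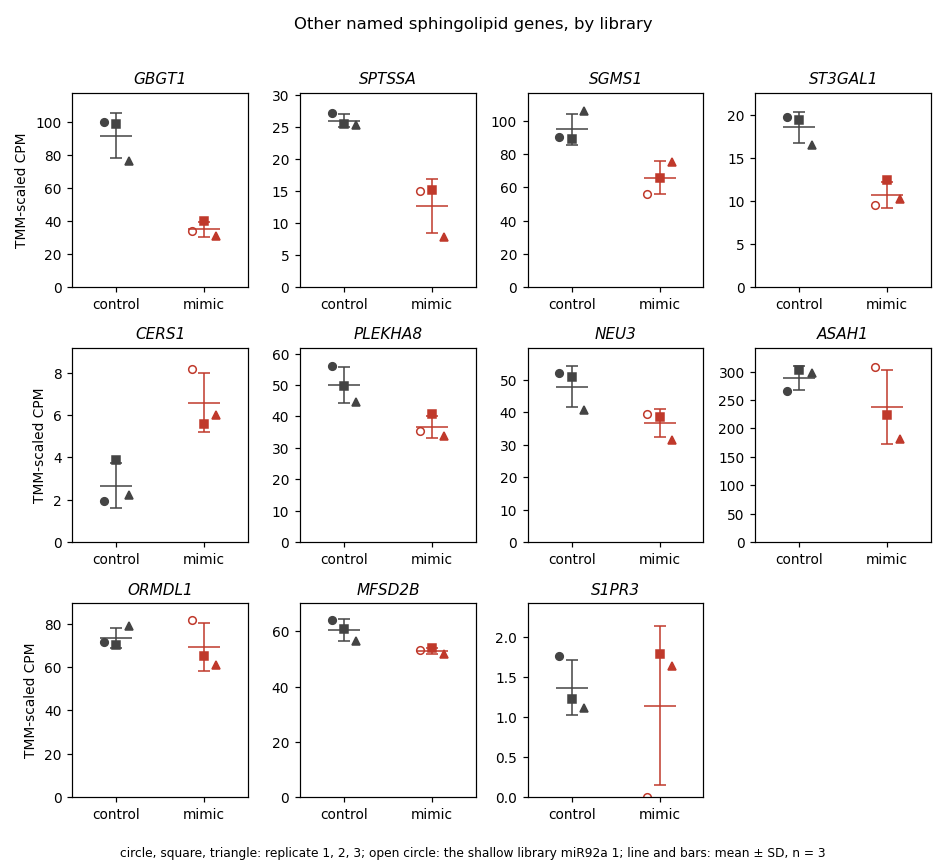
TMM-scaled CPM (y axis, from 0) of the other named sphingolipid genes in the control and mimic libraries. Points are libraries, marked by replicate number, with the mean and SD of 3 libraries per group; GBGT1 shows a wide gap, with 76.4 CPM or more in the control and 39.8 CPM or less with the mimic.

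Of the 73 tested sphingolipid genes 15 had a 7mer or 8mer in the 3′ UTR, 3 of the 10 members (30.0%) and 12 of the 63 others (19.0%), where all tested genes with a 3′ UTR gave 16.9%. The median 3′ UTR of the members was 2698 bases, against 1327 over all tested genes. GLTP, GBGT1 and ST3GAL1 held a match and had log2 fold changes of -1.70, -1.39 and -0.74. Among genes picked here after their values were seen, those with a match and a value near 0 included HEXA, with 2 matches, and ST3GAL2 (0.02). KDSR (0.25 ± 0.23, SE) and SPNS2 (0.63 ± 0.65) also held a match, with values about as large as their SE. In miR92a 1 they rested on 3 counts and 1 count. A match was in 1 of 4 HEXA transcripts with a 3′ UTR, 1 of 2 of ST3GAL2, 2 of 4 of KDSR and 1 of 1 of SPNS2. SPTSSA, SGMS1, PLEKHA8, NEU3, ASAH1 and GALC, in the same choice, had no such match in the longest 3′ UTR. A match was in 1 of 6 PLEKHA8 transcripts with a 3′ UTR and in 1 of 7 of NEU3.

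The 5 genes whose pattern over the 6 libraries was most like that of GLTP were ISG20L2, SOCS2, NFE2L2, SEC24B and OGDH, by Pearson correlation of log2 CPM among 11908 genes with a mean of at least 2 CPM. The correlation was 0.998 for ISG20L2 and 0.994, 0.990, 0.988 and 0.988 for the others. It does not weigh the size of a change. In the same order their log2 fold changes were -0.98, -1.16, -0.38, -0.10 and -0.41, against -1.70 for GLTP. The points share their libraries and the difference between the groups, and 349 genes had a correlation above 0.9. ISG20L2, a nucleolar exonuclease of ribosome maturation, had 60.8, 65.2 and 45.4 CPM in the control and 28.6, 30.7 and 27.5 CPM with the mimic. Like GLTP it was lowest in scramble 3 among the control libraries and close together in the mimic libraries. For GLTP that closeness is uncertain, since its miR92a 1 value rests on 3 counts (exact Poisson 95% interval 0.842 to 11.9 CPM).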

How the data were processed

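RNA of 6 K562 cultures, 3 per group, was sequenced as read pairs and quantified by the authors with kallisto on GRCh38, per the labels' protocols and the submitters' processing notes; the version, annotation and library strand are not given in the sources used here. Deposited values are expected counts (estimated counts per gene symbol, whole numbers, not scaled), totalling 25394557, 25395013 and 24751862 in scramble 1, 2 and 3 and 704448, 25982085 and 25628676 in miR92a 1, 2 and 3. The median count of the 14543 tested genes was 16 in miR92a 1 and 556 to 613 elsewhere.

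The fit used edgeR 4.0.16 in R 4.3.3 (filterByExpr, TMM, quasi-likelihood F-test on group, Benjamini-Hochberg adjustment, threshold 0.05); the SE is the log2 fold change divided by the square root of F. Log2 CPM used a prior count of 2. The code was tested on simulated data. DESeq2 1.42.0, limma-voom (limma 3.58.1), other scalings and filters, a replicate block and leaving out each library were alternatives; the block without each replicate number was added after seeing the data. Members and lists were chosen with earlier results of these data known. Named were all members, other sphingolipid genes past the threshold, up to 8 more past it with the block, and in each role with none the most abundant; the 5 genes most like GLTP were ranked by correlation. Some results, counted in the totals, are not reported here.

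Over all tested genes, the deviations of libraries 1, 2 and 3 from their group mean had correlations of 0.154, 0.160 and 0.420 with those of the library of the same number in the other group, each over 0.1, so the block is given beside the main fit where it changes a call. Across numbers, scramble 1 had 0.099 with miR92a 2, and scramble 2 had 0.090 with miR92a 1. Over the 4829 genes averaging 1000 counts or more, scramble 1 correlated better with miR92a 2 (0.517) than with miR92a 1 (0.370). Deviations from a group mean cancel out within the group. A replicate 3 apart in both groups thus raises the same-number values of 1 and 2. Those values do not show that these cultures are paired, and only replicate 3 is set apart. Transcripts and 3′ UTRs were from GENCODE 29, read with Python 3.11.15 and pandas 2.3.3; all 73 tested sphingolipid symbols matched. Figures used matplotlib 3.10.9.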

Additional observations from a re-analysis of the deposited data

How the results depend on the processing

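Of all tested genes 142 were lower and 63 higher. DESeq2 gave 247 and 140, limma-voom 182 and 93, the replicate block 975 and 664, the block without replicate number 1, 2 and 3 gave 751, 549 and 866 lower and 486, 285 and 554 higher, and leaving out 1 library 56 to 148 and 14 to 53. Of the other sphingolipid genes 1 was lower and 0 higher. DESeq2 gave 2 lower and 1 higher (limma-voom 1 higher), no filter 2 lower, the block 8 and 2, the block without 1 replicate number 5 to 7 and 1 to 2, and leaving out 1 library 1 and 0. Among the members 1 was lower and 0 higher; DESeq2 gave 0 lower, with no adjusted p for GLTP or ST3GAL5, and limma-voom 0 lower (GLTP at -1.70 and -1.64), the block 1 higher, leaving out 1 library 0 to 1 lower, and the block without 1 replicate number 0 to 1 higher. The GLTP log2 fold change of -1.70 ranged from -1.92 to -1.54 with 1 library left out and from -1.83 to -1.35 with the block and 1 replicate number left out. The block changed no call of a named gene other than those given above, and the block without 1 replicate number was added after seeing the data. Rescaling to the median of ratios or to totals moved the median log2 fold change of all genes from -0.01 to -0.01 and 0.00. The causes of these changes were not tested. Depth limits scarce genes in miR92a 1, where 40.3% of tested genes had fewer than 10 counts.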
